A study of Homo sapiens with 12 samples.

Results

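Cells carrying 1 short hairpin RNA against fibromodulin (FMOD) were compared with cells carrying another, with no control library in the test. The comparison uses the 3 libraries labelled shRNA1 and the 3 labelled shRNA2, 6 of the 12 libraries of the series. The other 6 are 3 libraries with a negative-control hairpin (NC) and 3 with shRNA3, another hairpin against FMOD. All were RNA-seq libraries of SCC-15, an established line from a human oral squamous cell carcinoma of the tongue, kept in DMEM with fetal bovine serum and harvested after 48 hours per the labels. The shRNA1 and shRNA2 groups thus shared the line, the medium and a hairpin against FMOD, and differed in which hairpin they carried. The labels do not say whether each hairpin was read in a pool of cells or in a clone, or whether the 3 libraries of a group came from separate cultures. Hairpin and cell population therefore cannot be told apart. Every p-value below sets the difference between the groups against the spread between these libraries, which may be technical. Totals were 18821295 to 19567289 counts with shRNA1 and 17350033 to 17825145 counts with shRNA2.

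A short hairpin RNA is cut by Dicer into a short duplex, and a strand of it is loaded onto an Argonaute protein that silences transcripts pairing with it. The loaded strand can also lower transcripts that pair only through its seed, so hairpins against the same gene can differ in the other transcripts they reach. Double-stranded RNA is in addition read by sensors such as PKR and RIG-I, which feed interferon-stimulated genes. The hairpin sequences are not given in the sources used here, so no seed was searched. The target itself, FMOD (chromosome 1, 203340628 to 203351758, minus strand, GRCh38), a small leucine-rich proteoglycan of the collagen matrix, had 0 counts in all 6 hairpin libraries. It had 2, 2 and 3 counts in the NC libraries. A count of 0 allows up to 0.153 to 0.173 CPM (counts scaled to equal library totals) in these libraries, for counting error only, so FMOD was too low to be compared between the hairpins.

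The cells were checked against marker lists. The stratified squamous markers, keratins and p63 among them, summed to 3047 to 3464 CPM with shRNA1 and 3436 to 3630 CPM with shRNA2, ranges that overlap. Of the 13 tested members of this list 5 were higher with shRNA2 and 3 with shRNA1 (median -0.29), against 3 and 0 in a model of all 12 libraries. Its main members split: KRT5 was higher with shRNA2 (log2 difference -1.92), KRT14 (1.17) and TP63 (0.67) with shRNA1. EPCAM, an epithelial gene not specific to squamous cells, was higher with shRNA2 at 159 ± 22.5 against 279 ± 7.14 CPM (mean ± SD, n = 3 each, 1.75-fold, edgeR adjusted p = 0.00134). Markers of simple glandular epithelium, mostly KRT8, KRT18 and KRT7, summed to 5301 to 6855 CPM and 7101 to 7346 CPM. In that list 5 of the 7 tested members were higher with shRNA2 and 0 with shRNA1, among them MUC1 at 32.1 ± 16.2 against 74.7 ± 2.75 CPM (2.33-fold, edgeR adjusted p = 0.0133, call lost with the GC correction and under other alternatives). The count was 3 without shRNA1 library 2 or shRNA2 library 2 3 with the GC correction, 2 in the 12-library model and 7 without shRNA1 library 3. FAP, a fibroblast marker, CD3E, MS4A1 and TYROBP of leukocytes, KDR and EMCN of endothelium, and INSM1 and ELAVL4 of neurons were at 0 in all 6 libraries. Of the 10 fibroblast markers 8 had at most 12 counts in every library, and the list's sum of 16.5 to 22.4 CPM against 45.3 to 47.2 CPM was carried by COL1A1. Among the low ones, COL1A2, COL3A1, DCN, POSTN and THY1 had 4, 3, 5, 2 and 12 counts in shRNA1 library 3. They had 0 to 2 counts in every other library. PDGFRA and LUM had 0 in that library. The endothelial list summed to 5.65 to 7.39 against 8.30 to 10.1 CPM, with 5 of 8 members at 12 counts or fewer. The leukocyte list summed to 51.5 to 109.1 against 88.7 to 97.3 CPM, mostly CD68, and the neuronal list to 102.7 to 120.5 against 70.8 to 80.8 CPM, mostly the tubulin TUBB3. In bulk RNA fewer cells of a type and less RNA per cell cannot be told apart.

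Library 3 of shRNA1 stood apart from the other libraries of its group. On the first principal component of 14012 genes at 1 CPM or more, which held 70.9% of the variance, shRNA1 libraries 1, 2 and 3 lay at 46.4, 42.8 and 17.7 and the shRNA2 libraries at -35.9, -35.3 and -35.7. On the second, with 15.8%, the shRNA1 libraries lay at 16.6, 8.11 and -37.5. Its correlation with the other shRNA1 libraries was 0.968 and 0.973, against 0.986 between those 2, and 0.956 to 0.958 with the shRNA2 libraries. For 71.4% of the genes called below it lay nearer to the shRNA2 libraries than libraries 1 and 2 did. Results are therefore also given over the 6 fits that each left out 1 library.

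**Figure D1:**
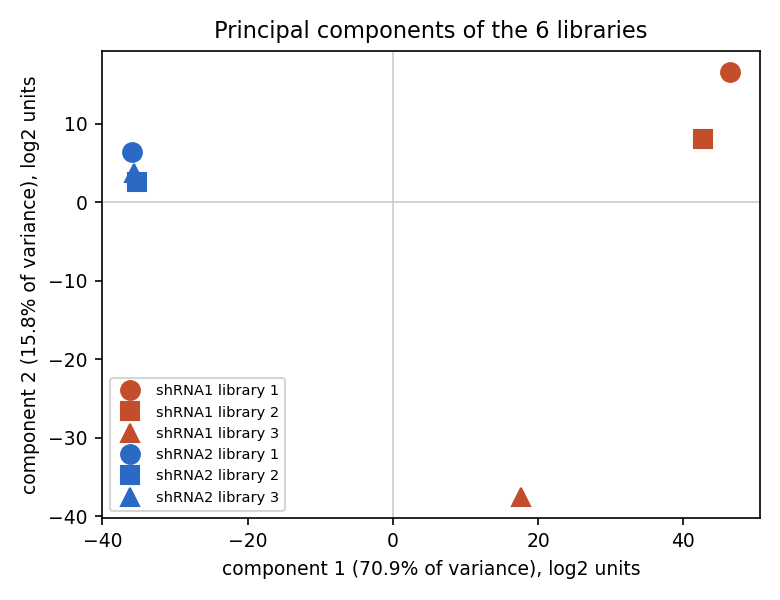
Scores of the 6 libraries on the first and second principal components of log2 expression, with the share of variance on each axis. The 3 shRNA2 points lie together at -35.9 to -35.3 on the first component, and shRNA1 library 3, at 17.7, lies between them and the other shRNA1 points.

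Base composition also moved with the contrast. Over 13785 genes, each of which shares these 6 libraries and is no replicate, the log2 difference and GC content had a Spearman correlation of -0.22. From the tenth of genes lowest in GC (27.9 to 38.7%) to the tenth highest (61.8 to 74.7%) the median log2 difference went from 0.17 to -0.27. The share of genes called higher with shRNA1 went from 29.7% to 9.51%, and the share called higher with shRNA2 from 7.03% to 37.7%. Library 3 of shRNA1 had the most negative relation of its own deviation to GC among the 6 libraries (-0.35). A fit corrected for GC content and length, added after seeing the data, called 6247 genes, of which 5266 were also called without the correction, all in the same direction. The part of GC content in the results below was not tested further. Counts with the correction stand beside the lists whose count in a direction it moved by over 1.5 times.

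**Figure D2:**
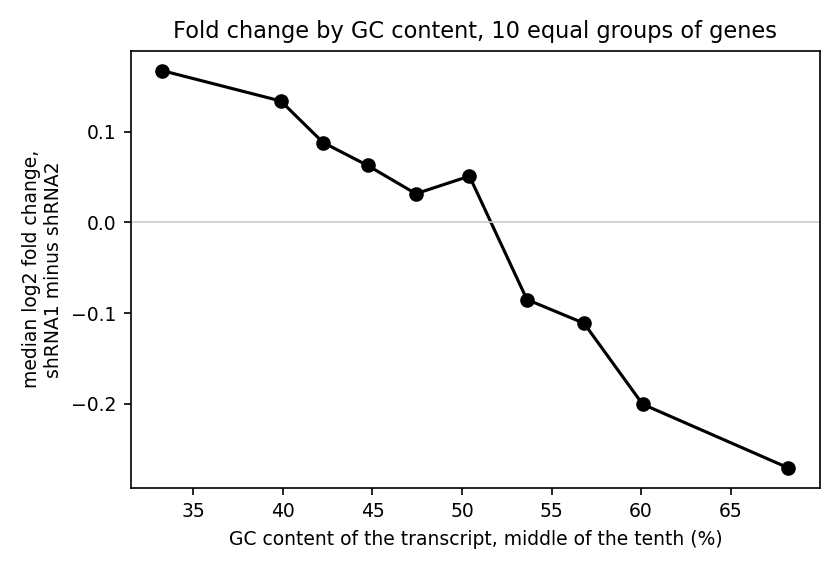
Median log2 difference (shRNA1 minus shRNA2) of 10 equal groups of genes ordered by GC content of the longest transcript, drawn at the middle of each group's GC range in percent. The median runs from 0.17 in the group of lowest GC to -0.27 in the group of highest GC.

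Of 15256 genes in the edgeR quasi-likelihood fit, 6251 (41.0%) differed between the hairpins at a Benjamini-Hochberg adjusted p under 0.05. Of these 3147 (20.6% of those tested) were higher with shRNA1 and 3104 (20.3%) with shRNA2. A change of at least 2-fold was found for 1654 of them, 705 higher with shRNA1 and 949 higher with shRNA2, and of at least 8-fold for 70. The median size of the log2 difference over all tested genes was 0.40, and its median -0.01. In 6180 of the called genes the 3 shRNA1 values did not overlap the 3 shRNA2 values, which held for 54.7% of all tested genes. Leaving out 1 library gave 3649 to 9442 called genes, the highest without shRNA1 library 3, so the number depends on that library. A model of all 12 libraries, in which the spread of the 4 groups is pooled, called 2158. The lists below were read against 41.0%, 20.6% and 20.3%, since any large list has called members here. EGFR, THBS1, AMOTL2, TGFB2, VEGFA, PFKL, ALDOA, GPI, OAS1, KLK5, JUN, DUSP6, CDKN1A, CDH1, RIGI, EIF2AK2, DICER1, DROSHA, AGO1, AGO3, MCM5 and IFIT1 are named although the rule for named genes does not reach them, after their values were seen. The same holds for TWIST1, TWIST2, ACTA2, VIM, CA9, HK2 and PFKFB3. So it does for ERRFI1, LRIG1, LRIG3, TNFAIP3, NFKBIA, NFKB2, RELB, BIRC3, ICAM1, YAP1, WWTR1, TEAD1 and TEAD4.

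**Figure D3:**
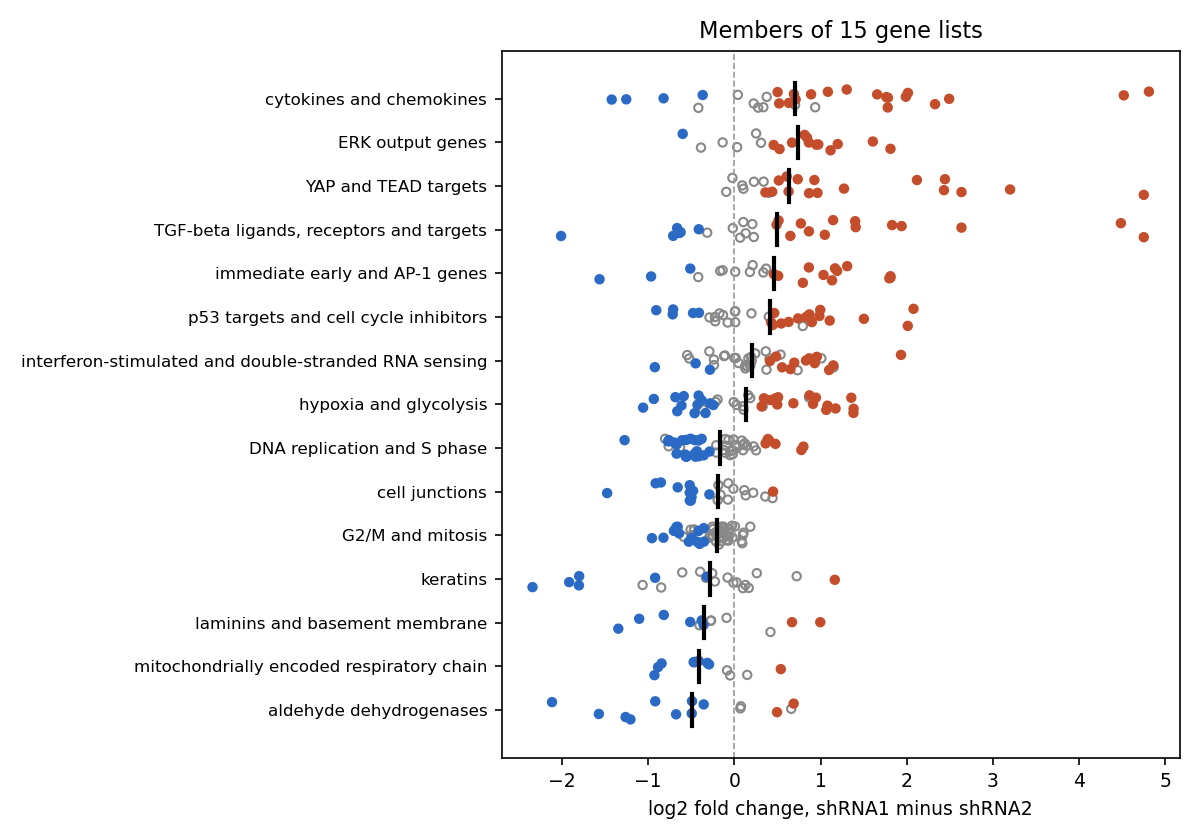
Log2 difference (shRNA1 minus shRNA2) of each tested member of 15 gene lists, 1 point a gene, with red points called higher with shRNA1, blue points called higher with shRNA2, open points not passing the test and a black bar at the list's median. The bars of the ERK output genes (0.74), cytokines (0.71) and YAP and TEAD targets (0.63) lie furthest right of the lists drawn, and that of the aldehyde dehydrogenases (-0.49) furthest left.

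Most tested members of the list of YAP and TEAD targets were higher with shRNA1. YAP and TAZ are co-activators held in the cytoplasm by the Hippo kinases and, in the nucleus, bind DNA through TEAD factors, whose core site reads GGAATG. Beside targets the list holds genes of the pathway itself, YAP1, WWTR1 (the gene of TAZ), TEAD1 and TEAD4. Of these YAP1 (log2 difference 0.87) and TEAD4 (0.97) were called higher with shRNA1, and WWTR1 and TEAD1 did not pass. Of the 23 tested members of the list, 16 (69.6%) were higher with shRNA1 and 0 with shRNA2, with a median log2 difference of 0.63. Leaving out 1 library gave 13 to 19 and 0 to 1, and the 12-library model 11 and 0. The promoters of CCN2 and ANKRD1, a pair of its members that carry the site more than once, are shown for orientation (RefSeq, GRCh38.p14, 5′ to 3′ on the gene's strand, matches to GGAATG in capitals). The CCN2 stretch is the 250 bases before the start, with matches at -169, -104 and -95, and the ANKRD1 stretch the 60 bases from -250 to -191, with its match at -220.
CCN2, chr6:131951373-131951622, minus strand: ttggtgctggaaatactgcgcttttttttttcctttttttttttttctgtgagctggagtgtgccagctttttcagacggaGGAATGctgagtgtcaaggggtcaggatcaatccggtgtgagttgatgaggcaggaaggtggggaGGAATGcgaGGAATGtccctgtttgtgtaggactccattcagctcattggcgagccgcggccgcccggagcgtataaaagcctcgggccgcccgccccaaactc
ANKRD1, chr10:90921278-90921337, minus strand: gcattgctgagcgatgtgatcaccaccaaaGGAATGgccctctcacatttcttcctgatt
On either strand GGAATG occurred in the 250 upstream bases of 9.50% of 10945 promoters of tested genes, of 11.1% of the 459 that were 2-fold higher with shRNA1 and of 10.6% of the 612 that were 2-fold higher with shRNA2. Among the 11 called members of the list with a promoter in the table it occurred in 5 (45.5%). Those 5 include YAP1, while F3 and AMOTL2 were among the members without a match. A match describes these letters and is not a bound site.

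CCN1 (ENSG00000142871, chromosome 1, 85580761 to 85583962, plus strand), a secreted matricellular protein and a standard YAP target, was read at 128, 124 and 179 CPM with shRNA1 and 29.8, 25.9 and 23.5 CPM with shRNA2, libraries 1 to 3 in that order here and below. All shRNA1 values lay above all shRNA2 values, with the highest in library 3 (5.45-fold, log2 difference 2.44, SE 0.17, edgeR adjusted p = 0.000138). F3 (ENSG00000117525, chromosome 1, 94529225 to 94541800, minus strand), tissue factor, the trigger of clotting, stood at 351, 375 and 481 CPM with shRNA1 and 74.1, 74.96 and 74.4 CPM with shRNA2. The shRNA2 libraries were nearly level, and the lowest shRNA1 library was far above them (5.4-fold, log2 difference 2.43, SE 0.13, edgeR adjusted p = 7.78e-05). AMOTL2, an angiomotin that restrains YAP and is itself a target, was at 163, 145 and 162 CPM with shRNA1 and 38.2, 35.2 and 34.6 CPM with shRNA2 (4.35-fold, log2 difference 2.12, SE 0.09, edgeR adjusted p = 6.09e-05). CCN2 (ENSG00000118523), connective tissue growth factor, was low in all libraries, at 3.23, 5.75 and 5.67 CPM with shRNA1 and 1.03, 0.578 and 0.739 CPM with shRNA2, from 64, 117 and 107 counts against 17, 10 and 13 (6.22-fold, log2 difference 2.64, SE 0.34, edgeR adjusted p = 0.00105). ANKRD1 (ENSG00000148677), a cardiac ankyrin repeat protein that follows YAP in many cells, was lower still, at 1.31, 3.05 and 5.98 CPM with shRNA1 and 0.121, 0.578 and 0.398 CPM with shRNA2 (9.19-fold, edgeR adjusted p = 0.00696). Neither gene's groups overlapped. CCN1 passed in every alternative fit except the 12-library model. CCN2 overlaps an annotated gene on the opposite strand, and whether counting used strand is not given in the sources used here.

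The TGF-β and activin list also leaned to shRNA1. TGF-β ligands and activins bind receptor kinases that phosphorylate SMAD proteins, and in squamous carcinoma the pathway is known for raising matrix and mesenchymal genes. Of 27 tested members, 14 were higher with shRNA1 and 6 with shRNA2 (median 0.49). The ranges were 11 to 17 and 4 to 7 over the 6 fits without 1 library, and the 12-library model called 8 and 2. Among the ligands INHBA (ENSG00000122641, chromosome 7, 41667168 to 41705834, minus strand), which encodes the activin βA subunit, was at 25.7, 28.4 and 25.95 CPM with shRNA1 and 1.15, 0.636 and 1.76 CPM with shRNA2. Its shRNA1 values were close together and its shRNA2 values near 1 CPM (22.4-fold, log2 difference 4.49, SE 0.27, edgeR adjusted p = 0.000135). TGFB2, a TGF-β ligand, had 32, 48 and 24 counts with shRNA1 and 2, 1 and 0 with shRNA2 (edgeR adjusted p = 0.00123). Among targets, PMEPA1, a feedback inhibitor of SMAD signalling, was at 32.3, 33.6 and 65.4 CPM with shRNA1 and 10.6, 11.3 and 12.2 CPM with shRNA2, with library 3 the highest and no overlap (3.84-fold, log2 difference 1.94, SE 0.27, edgeR adjusted p = 0.00146). THBS1, thrombospondin 1, an activator of latent TGF-β outside the list, was at 64.2, 65.04 and 173 CPM with shRNA1 and 18.5, 19.3 and 18.8 CPM with shRNA2, again highest in library 3 (5.33-fold, log2 difference 2.42, SE 0.37, edgeR adjusted p = 0.00216). LTBP1, which tethers latent TGF-β to the matrix, ran the other way at 2.88, 3.34 and 10.2 CPM with shRNA1 and 20.2, 23.6 and 22.2 CPM with shRNA2 (4.03-fold, edgeR adjusted p = 0.00708), and its call was lost in the fit without the filter on low counts. INHBA overlaps INHBA-AS1 on the opposite strand.

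Members of the epithelial-mesenchymal transition (EMT) list were called in both directions, more often higher with shRNA1. In EMT epithelial cells loosen their junctions and take on a motile, matrix-producing state. In the EMT list 9 of 24 tested members were higher with shRNA1 and 3 with shRNA2 (median 0.19). Without shRNA1 library 3 the counts were 13 and 9, and without shRNA2 library 2 the second count was 1. In the 12-library model the counts were 6 and 0. The 3 members higher with shRNA2 were TWIST1 (log2 difference -0.62, edgeR adjusted p = 0.00704), TWIST2 (-0.78, edgeR adjusted p = 0.0111) and ACTA2 (-1.54, edgeR adjusted p = 0.0337). VIM, vimentin, did not pass (-0.46, edgeR adjusted p = 0.0873). CDH1 and TGM2, given at the end of this paragraph, are not in the list. SPARC (ENSG00000113140, chromosome 5, 151661096 to 151687165, minus strand), a collagen-binding matricellular protein, was at 18.6, 16.9 and 30.6 CPM with shRNA1 and 0.544, 0.289 and 0.625 CPM with shRNA2. That is 343 to 577 counts in the shRNA1 libraries and 5 to 11 in the shRNA2 libraries, the largest fold of the genes named by the rule (44.7-fold, log2 difference 5.48, SE 0.35, edgeR adjusted p = 0.000135). FN1 (ENSG00000115414, chromosome 2, 215360440 to 215436172, minus strand), fibronectin, was at 183, 162 and 370.4 CPM with shRNA1 and 28.8, 34.4 and 30.3 CPM with shRNA2. Library 3 had more than libraries 1 and 2 together, and all were above the shRNA2 range (7.65-fold, log2 difference 2.94, SE 0.30, edgeR adjusted p = 0.000516). SNAI2, the EMT transcription factor Slug, was at 43.3, 47.9 and 47.6 CPM with shRNA1 and 13.95, 14.5 and 12.7 CPM with shRNA2, with little spread in either group (3.37-fold, log2 difference 1.75, SE 0.11, edgeR adjusted p = 0.000135). CDH2, N-cadherin, was at 5.701, 6.29 and 18.4 CPM with shRNA1 and 3.201, 2.78 and 3.52 CPM with shRNA2, with most of the difference in library 3 (3.19-fold, edgeR adjusted p = 0.0187), and its call was lost without any 1 of the shRNA2 libraries and without the low-count filter. CDH1, E-cadherin, was lower with shRNA1 at 38.9 ± 2.703 against 54.9 ± 2.41 CPM (1.41-fold, edgeR adjusted p = 0.00546, call lost in the 12-library model). TGM2, a transglutaminase that crosslinks matrix, was at 463, 487 and 981 CPM with shRNA1 and 252, 253 and 231 CPM with shRNA2 (2.63-fold, edgeR adjusted p = 0.00475, call lost in the 12-library model and without the filter).

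Collagens, basement membrane and their receptors differed by gene. Of 21 tested collagen genes 3 were higher with shRNA1 and 3 with shRNA2 (median -0.03), and without shRNA1 library 3 the second count was 8. In the 12-library model 2 were called each way. COL27A1, a fibrillar collagen, was higher with shRNA1 (16.2 ± 3.702 against 5.53 ± 0.308 CPM, 2.93-fold, edgeR adjusted p = 0.000861), and COL1A1, the main chain of type I collagen, was higher with shRNA2 (17.6 ± 2.62 against 45.8 ± 2.26 CPM, 2.604-fold, edgeR adjusted p = 0.000338). COL15A1 (4.302-fold, edgeR adjusted p = 0.00923, call lost in the 12-library model) and COL11A2 (3.61-fold, edgeR adjusted p = 0.01003) were higher with shRNA1 at low levels. In the laminin and basement membrane list 6 of 13 members were higher with shRNA2 and 2 with shRNA1 (median -0.36), and the 12-library model called 0 in either direction. The second count was 1 without shRNA1 library 1 or any 1 of the shRNA2 libraries. HSPG2, which encodes perlecan, was at 77.7, 50.4 and 80.2 CPM with shRNA1 and 172, 181 and 177 CPM with shRNA2 (2.55-fold, log2 difference -1.35, SE 0.16, edgeR adjusted p = 0.000871). LAMB2 (1.77-fold, edgeR adjusted p = 0.000792) and the linker nidogen NID1 (2.15-fold, edgeR adjusted p = 0.00731) were also higher with shRNA2, while LAMA2 was at 8.66 ± 3.46 against 4.34 ± 0.913 CPM with overlapping values (1.996-fold, edgeR adjusted p = 0.0385). Among integrins, which bind these proteins, 2 of 13 were higher with shRNA1 and 3 with shRNA2. The second count was 6 without shRNA1 library 3 and 1 without shRNA1 library 2 or shRNA2 library 2, the GC correction gave 3 and 1, and the 12-library model 1 and 1. ITGA2, the collagen-binding α2 chain, was at 184, 159 and 227 CPM with shRNA1 and 70, 85.6 and 72.9 CPM with shRNA2 (2.49-fold, log2 difference 1.32, SE 0.14, edgeR adjusted p = 0.000584). ITGB4, the laminin receptor chain of hemidesmosomes, was at 328, 306 and 544 CPM with shRNA1 and 715, 705 and 699 CPM with shRNA2, with library 3 nearest to shRNA2 (1.8-fold, edgeR adjusted p = 0.0107). ITGB2 was higher with shRNA1 (1.79-fold, edgeR adjusted p = 0.00413) and ITGB8 with shRNA2 (1.66-fold, edgeR adjusted p = 0.0155). The calls of ITGB4 and ITGB2 were lost in the 12-library model, that of ITGB4 also with the GC correction, and that of ITGB8 without shRNA1 library 2 or shRNA2 library 2. Of the small leucine-rich proteoglycans and lysyl oxidases, the class of FMOD and the enzymes that crosslink collagen, 7 of 20 were high enough to be tested, 0 were higher with shRNA1 and 2 with shRNA2. The second count was 1 without any 1 library other than shRNA1 library 3, with the GC correction and in the 12-library model. Both were lysyl oxidase-like enzymes, LOXL1 at 4.94, 6.14 and 6.99 CPM with shRNA1 and 22.8, 19.7 and 19.8 CPM with shRNA2 (3.45-fold, log2 difference -1.79, SE 0.16, edgeR adjusted p = 0.000303) and LOXL4 at 1.14 ± 0.368 against 2.21 ± 0.143 CPM (1.94-fold, edgeR adjusted p = 0.0374), whose call was lost under several alternatives. Of 24 matrix protease genes 6 were higher with each hairpin, and the 12-library model called 1 higher with shRNA1 and 5 with shRNA2. ADAMTS1 (18.5 ± 3.72 against 6.36 ± 0.777 CPM, 2.91-fold, edgeR adjusted p = 0.000829) was higher with shRNA1. MMP12 (5.93 ± 1.25 against 14.4 ± 1.44 CPM, 2.42-fold, edgeR adjusted p = 0.00172), MMP28 (7.79 ± 1.38 against 38.1 ± 3.695 CPM, 4.897-fold, edgeR adjusted p = 0.000148) and the inhibitor TIMP4 (4.103 ± 0.943 against 9.31 ± 0.781 CPM, 2.27-fold, edgeR adjusted p = 0.00304) were higher with shRNA2. MMP28 overlaps TAF15 and TIMP4 overlaps SYN2 on the opposite strand.

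Ligands of the epidermal growth factor receptor and the transcripts downstream of it were mostly higher with shRNA1. The title of the series links FMOD to EGFR signalling. EGFR ligands are shed from the cell surface and start the RAS-ERK cascade, which raises FOS-family factors, DUSP phosphatases and Sprouty proteins, the latter as brakes. The list of ligands and receptors also holds ERRFI1 (log2 difference 0.80), LRIG1 (0.83) and LRIG3 (0.38), which are neither. These were all called higher with shRNA1 and are part of the count. In this list 8 of 14 tested members were higher with shRNA1 and 3 with shRNA2 (median 0.38). The first count was 5 without shRNA2 library 1 or 3, and the second 1 without shRNA2 library 2, while the 12-library model called 3 and 1. AREG (ENSG00000109321, chromosome 4, 74445134 to 74455009, plus strand), amphiregulin, was at 139.9, 141 and 154 CPM with shRNA1 and 54.3, 56.6 and 50.2 CPM with shRNA2. The 3 libraries of each group were close and the groups far apart (2.7-fold, log2 difference 1.43, SE 0.09, edgeR adjusted p = 0.000135). TGFA was at 181, 164 and 142 CPM with shRNA1 and 74.8, 78.9 and 70.96 CPM with shRNA2 (2.17-fold, log2 difference 1.11, SE 0.11, edgeR adjusted p = 0.000383), and HBEGF at 32.5 ± 4.75 against 17 ± 2.08 CPM (1.91-fold, edgeR adjusted p = 0.00248, call lost in the 12-library model). NRG2, a ligand of ERBB3 and ERBB4, was higher with shRNA2 at 1.82 ± 0.439 against 4.12 ± 0.671 CPM (2.27-fold, edgeR adjusted p = 0.00946). EGFR itself was at 319.8, 288 and 347 CPM with shRNA1 and 233, 256 and 243 CPM with shRNA2, 1.31-fold higher with shRNA1 (edgeR adjusted p = 0.0118), and its call was lost in the 12-library model and without shRNA2 library 1 or 3. The receptor thus differed far less than AREG, although that difference of differences was not tested.

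In the ERK output list 12 of 18 tested members were higher with shRNA1 and 1 with shRNA2 (median 0.74). Without 1 library the first count was 9 to 15 and the second 0 to 2, and the 12-library model called 7 and 0. FOSL1 (ENSG00000175592, chromosome 11, 65892049 to 65900573, minus strand), the AP-1 subunit FRA1, was at 246, 216 and 161 CPM with shRNA1 and 62.8, 52.6 and 61.9 CPM with shRNA2. Library 3 was the lowest of shRNA1 and still well above every shRNA2 library (3.51-fold, log2 difference 1.81, SE 0.16, edgeR adjusted p = 0.000258). SPRY4, a Sprouty protein, was at 55.8, 46.8 and 51.3 CPM with shRNA1 and 22.4, 26.95 and 21.6 CPM with shRNA2 (2.17-fold, log2 difference 1.12, SE 0.12, edgeR adjusted p = 0.000633), and SPRED3, a related inhibitor, at 7.704 ± 1.36 against 2.52 ± 0.334 CPM (3.05-fold, edgeR adjusted p = 0.00114). DUSP6, the phosphatase of ERK, was at 127 ± 15.2 against 65.7 ± 4.13 CPM (1.93-fold, edgeR adjusted p = 0.000749). EPHA2, an ephrin receptor kinase raised by ERK, was at 872, 686 and 529 CPM with shRNA1 and 317, 295 and 297 CPM with shRNA2, with a wide shRNA1 spread that did not reach shRNA2 (2.297-fold, log2 difference 1.20, SE 0.16, edgeR adjusted p = 0.00123; call lost in the 12-library model). Of 23 immediate early and AP-1 genes 12 were higher with shRNA1 and 3 with shRNA2 (median 0.46). The 6 fits without 1 library gave 11 to 17 and 3 to 5, the second being 5 without shRNA1 library 3, and the 12-library model only 3 and 1. JUN was at 115 ± 30.9 against 52.4 ± 4.51 CPM (2.195-fold, edgeR adjusted p = 0.00305), FOSB at 12.3 ± 4.98 against 3.49 ± 0.381 CPM (3.51-fold, edgeR adjusted p = 0.00302) and KLF6 at 101 ± 9.72 against 40.9 ± 3.15 CPM (2.48-fold, edgeR adjusted p = 0.000208). JUND, an AP-1 subunit of resting cells, was higher with shRNA2, at 39.5, 44.9 and 54.6 CPM with shRNA1 and 142, 132 and 138 CPM with shRNA2, with no overlap (2.96-fold, log2 difference -1.57, SE 0.13, edgeR adjusted p = 0.000195). The calls of JUN, FOSB and KLF6 were lost in the 12-library model, and FOSB overlaps ERCC1 on the opposite strand.

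AP-1 dimers of FOS and JUN proteins bind TGANTCA. Among genes named by the rule that had a promoter, it occurred in 11 of 72 higher with shRNA1 and 5 of 59 higher with shRNA2. The promoters of IL11 and F3, both higher with shRNA1 and with the motif, read as follows (RefSeq, GRCh38.p14, gene strand, matches in capitals). The IL11 stretch is the 250 bases before the start, with its match at -96, and the F3 stretch the 200 bases from -250 to -51, with matches at -223 and -210.
IL11, chr19:55370464-55370713, minus strand: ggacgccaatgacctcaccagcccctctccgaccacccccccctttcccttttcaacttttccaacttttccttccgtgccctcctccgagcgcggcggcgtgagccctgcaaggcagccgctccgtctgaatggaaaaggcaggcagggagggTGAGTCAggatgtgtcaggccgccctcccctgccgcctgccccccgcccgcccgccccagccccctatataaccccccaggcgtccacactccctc
F3, chr1:94541810-94542009, minus strand: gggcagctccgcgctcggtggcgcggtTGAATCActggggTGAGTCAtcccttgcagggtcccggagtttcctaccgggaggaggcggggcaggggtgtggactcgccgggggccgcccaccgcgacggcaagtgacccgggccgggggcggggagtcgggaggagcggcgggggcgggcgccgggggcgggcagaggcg
TGANTCA, searched on both strands of the 250 upstream bases, occurred in 4.25% of the 10945 promoters of tested genes. Its share was 9.15% among the 459 promoters of genes 2-fold higher with shRNA1 and 4.41% among the 612 of genes 2-fold higher with shRNA2. The mean GC content was 64.2% over all these promoters, 61.1% in the shRNA1 set and 64.9% in the shRNA2 set. Its part in the shares was not tested. These shares are a description of sequence and were not tested.

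The cytokine and chemokine list also holds TNFAIP3, NFKBIA, NFKB2, RELB, BIRC3 and ICAM1, which encode neither. All of these except ICAM1 were called higher with shRNA1 and are part of the count. In this list 18 of 30 tested members were higher with shRNA1 and 4 with shRNA2 (median 0.71). The counts were 15 to 21 and 2 to 4 without 1 library (2 without shRNA2 library 1 or 2), and 14 and 1 in the 12-library model. IL24 (ENSG00000162892, chromosome 1, 206897443 to 206904139, plus strand), a secreted factor of the IL-10 family, was at 34, 36.3 and 22.03 CPM with shRNA1 and 1.27, 0.636 and 1.36 CPM with shRNA2. Library 3 was the lowest of its group and still far above the shRNA2 libraries (28.1-fold, log2 difference 4.81, SE 0.30, edgeR adjusted p = 0.000135). IL11 (ENSG00000095752, chromosome 19, 55364389 to 55370463, minus strand), an IL-6 family cytokine, was at 47.7, 44.2 and 39.9 CPM with shRNA1 and 7.85, 9.14 and 9.204 CPM with shRNA2, with little spread in either group (5.03-fold, log2 difference 2.33, SE 0.13, edgeR adjusted p = 7.78e-05). IL6 was read from 28, 43 and 43 counts with shRNA1 and 1, 2 and 1 with shRNA2 (edgeR adjusted p = 0.000533), and CXCL2, a neutrophil chemokine, was at 2.78, 3.14 and 6.35 CPM with shRNA1 and 0.785, 0.694 and 0.682 CPM with shRNA2 (5.63-fold, edgeR adjusted p = 0.00227). All 4 passed in every alternative fit that tested them, and IL6 and CXCL2 were too low for the fit of genes with a mean of at least 50 counts.

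Interferon-stimulated genes and sensors of double-stranded RNA gave 12 of 41 members higher with shRNA1 and 3 with shRNA2 (36.6% called, median 0.20), a share below that of all genes. Leaving out 1 library gave 9 to 15 and 1 to 6 (6 without shRNA1 library 3, 1 without shRNA1 library 2 or shRNA2 library 1 or 3), and the 12-library model 3 and 1. ISG15 (ENSG00000187608, chromosome 1, 1001138 to 1014540, plus strand), a ubiquitin-like modifier, was at 501, 425 and 293 CPM with shRNA1 and 115, 103 and 101 CPM with shRNA2. Even library 3, the lowest of shRNA1, exceeded every shRNA2 library (3.82-fold, log2 difference 1.93, SE 0.18, edgeR adjusted p = 0.000327). ISG20, an exonuclease, was at 56.4 ± 9.31 against 26.3 ± 2.38 CPM (2.14-fold, edgeR adjusted p = 0.00105), and SAMD9, an antiviral protein, at 56.6 ± 8.95 against 29.1 ± 3.88 CPM (1.94-fold, edgeR adjusted p = 0.00235). RSAD2, which encodes viperin, was low at 3.63 ± 0.528 against 1.63 ± 0.364 CPM (2.22-fold, edgeR adjusted p = 0.01003). The calls of ISG20, SAMD9 and RSAD2 were lost in the 12-library model. IFIT1 was 1.33-fold higher with shRNA1 (edgeR adjusted p = 0.0154), a call lost under several alternatives. OAS1, a synthetase of the RNase L pathway, was higher with shRNA2, at 23.96, 21.1 and 16.5 CPM with shRNA1 and 40.8, 37.9 and 38.01 CPM with shRNA2 (1.896-fold, edgeR adjusted p = 0.00229). Of the sensors, EIF2AK2, the gene of PKR, was at 77.8 ± 8.47 against 69.5 ± 4.201 CPM (edgeR adjusted p = 0.252) and RIGI at 3.08 ± 0.706 against 1.38 ± 1.39 CPM (edgeR adjusted p = 0.154), neither passing the test.

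Among the 13 genes of the RNA interference machinery 4 were higher with shRNA1 and 3 with shRNA2. Leaving out 1 library gave 2 to 5 and 1 to 4, with 1 in the second place without any library other than shRNA1 library 3, and the 12-library model 1 and 0. AGO2, the slicing Argonaute, was at 246, 197 and 212 CPM with shRNA1 and 82.4, 82.3 and 80.3 CPM with shRNA2. The groups were far apart and each was tight (2.68-fold, log2 difference 1.42, SE 0.10, edgeR adjusted p = 0.000149), and AGO2 passed in every alternative fit. In all 12 libraries scaled together the NC mean of AGO2 was 52.6 CPM. DGCR8, which with Drosha cuts primary microRNAs, was at 80.6 ± 9.47 against 50.6 ± 4.81 CPM (1.59-fold, edgeR adjusted p = 0.00368, call lost in the 12-library model). The other calls were small. AGO3 (1.41-fold, edgeR adjusted p = 0.0359) and TNRC6C (1.42-fold, edgeR adjusted p = 0.0388), a GW182 protein that recruits deadenylases, were higher with shRNA1. AGO1 (1.42-fold, edgeR adjusted p = 0.0104), AGO4 (1.43-fold, edgeR adjusted p = 0.0466) and DROSHA (1.17-fold, edgeR adjusted p = 0.0385) were higher with shRNA2. These 5 lost their calls in the 12-library model, and AGO3, AGO4, TNRC6C and DROSHA also when single libraries were left out. DICER1 was at 69.6 ± 14.6 against 77.7 ± 8.99 CPM and did not pass (edgeR adjusted p = 0.442).

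Targets of p53 and inhibitors of the cell cycle were higher with shRNA1 for 15 of 32 members and higher with shRNA2 for 5 (median 0.41). Without 1 library the counts were 12 to 18 and 2 to 7, with 2 in the second place without shRNA1 library 2 or shRNA2 library 1 and 3 without shRNA2 library 2, and 3 also with the GC correction. The 12-library model called 5 and 2. PLK2 (ENSG00000145632, chromosome 5, 58453982 to 58460260, minus strand), a polo-like kinase induced by stress, was at 92.5, 95.2 and 103 CPM with shRNA1 and 22.2, 20.6 and 25.8 CPM with shRNA2 (4.23-fold, log2 difference 2.08, SE 0.11, edgeR adjusted p = 7.78e-05). TIGAR, a p53-induced fructose bisphosphatase, was at 43.9, 45.6 and 21.9 CPM with shRNA1 and 7.07, 9.72 and 10.8 CPM with shRNA2, with library 3 lower than the other shRNA1 libraries (4.04-fold, log2 difference 2.01, SE 0.29, edgeR adjusted p = 0.00163). ZMAT3, a p53 target that binds RNA, was at 28.4 ± 7.74 against 13.2 ± 1.92 CPM (2.15-fold, edgeR adjusted p = 0.00552), GADD45A at 70.3 ± 4.94 against 35.2 ± 0.996 CPM (1.995-fold, edgeR adjusted p = 0.000354) and CDKN1A, the inhibitor p21, at 165 ± 19.4 against 113 ± 3.35 CPM (1.46-fold, edgeR adjusted p = 0.00463). TIGAR, GADD45A and CDKN1A lost their calls in the 12-library model.

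Genes of mitosis and of DNA replication were called more often in the shRNA2 direction. Of 54 G2/M genes 13 were higher with shRNA2 and 0 with shRNA1 (24.1% called, below the 41.0% of all genes, median -0.20). This count rests on single libraries. It was 35 without shRNA1 library 3, 23 with the GC correction, 7 without shRNA1 library 1, shRNA1 library 2 or shRNA2 library 3, 6 without shRNA2 library 1 or 2, and 2 in the 12-library model. PLK1, the main polo-like kinase of mitosis, was at 126, 134 and 157 CPM with shRNA1 and 289, 259 and 262 CPM with shRNA2, with no overlap (1.94-fold, log2 difference -0.96, SE 0.10, edgeR adjusted p = 0.000563), and passed in every alternative fit at an adjusted p under 0.05. TOP2A, topoisomerase IIα, was at 291, 353 and 600 CPM with shRNA1 and 638, 706 and 680.1 CPM with shRNA2, where library 3 lay next to the shRNA2 values (1.63-fold, edgeR adjusted p = 0.0402). HMMR was at 20.3 ± 8.49 against 35.8 ± 1.74 CPM (1.77-fold, edgeR adjusted p = 0.0351) and the kinase AURKB at 86.8 ± 12.2 against 138 ± 7.33 CPM (1.595-fold, edgeR adjusted p = 0.00303). The calls of TOP2A, HMMR and AURKB were lost in the 12-library model. Of 52 replication genes 21 were higher with shRNA2 and 7 with shRNA1 (median -0.17). The first count was 8 without shRNA1 library 2 or shRNA2 library 1, 9 without shRNA2 library 2 or 3, and 13 without shRNA1 library 1, and the second was 3 without any 1 of the shRNA2 libraries. The 12-library model called 4 and 1. POLD1, the catalytic subunit of polymerase δ, was at 54.1, 57.8 and 89.9 CPM with shRNA1 and 167, 154 and 167 CPM with shRNA2 (2.42-fold, log2 difference -1.27, SE 0.18, edgeR adjusted p = 0.00155). MCM5, of the replicative helicase, was at 141 ± 11.4 against 209 ± 6.97 CPM (1.48-fold, edgeR adjusted p = 0.00213) and E2F2 at 27.8 ± 6.46 against 47.4 ± 2.204 CPM (1.71-fold, edgeR adjusted p = 0.00837). CCNE2, cyclin E2 (42.7 ± 6.28 against 24.5 ± 0.224 CPM, 1.74-fold, edgeR adjusted p = 0.00218), and ORC6, of the origin recognition complex (68.5 ± 12.8 against 39.99 ± 0.588 CPM, 1.71-fold, edgeR adjusted p = 0.00395), were higher with shRNA1. E2F2 and CCNE2 lost their calls in the 12-library model.

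Keratins and junction genes leaned to shRNA2. Keratin pairs mark the kind and stage of an epithelium: KRT5 and KRT14 the basal layer, KRT4 and KRT13 the upper layers of oral mucosa, KRT19 simple and embryonic epithelium. Of 22 tested keratin genes 6 were higher with shRNA2 and 1 with shRNA1 (31.8% called, median -0.29). Without shRNA1 library 3 the counts were 11 and 3, the GC correction gave 5 and 4, and the 12-library model 4 and 0. KRT13 (ENSG00000171401, chromosome 17, 41500981 to 41505705, minus strand) was at 386, 427 and 479.9 CPM with shRNA1 and 1552, 1458 and 1496 CPM with shRNA2, in 2 tight and well separated groups (3.49-fold, log2 difference -1.80, SE 0.09, edgeR adjusted p = 7.78e-05). KRT19 (ENSG00000171345, chromosome 17, 41523617 to 41528308, minus strand) was at 250, 261 and 332 CPM with shRNA1 and 1015, 942 and 985 CPM with shRNA2 (3.49-fold, log2 difference -1.80, SE 0.12, edgeR adjusted p = 0.000135). KRT5 (ENSG00000186081, chromosome 12, 52514575 to 52520687, minus strand) was at 16.8, 18.9 and 29.8 CPM with shRNA1 and 84.7, 79.4 and 83.1 CPM with shRNA2 (3.78-fold, log2 difference -1.92, SE 0.20, edgeR adjusted p = 0.000518). KRT4 was at 0.404, 0.639 and 2.54 CPM with shRNA1 and 6.46, 5.78 and 5.85 CPM with shRNA2, low with shRNA1 in libraries 1 and 2 and higher in library 3 (5.07-fold, edgeR adjusted p = 0.0104). KRT14, the usual partner of KRT5, was the gene higher with shRNA1, at 58.7, 52.9 and 57.9 CPM with shRNA1 and 24.9, 24.9 and 25.7 CPM with shRNA2 (2.24-fold, log2 difference 1.17, SE 0.10, edgeR adjusted p = 0.000206), so the basal pair KRT5 and KRT14 went in opposite directions. Its call was lost in the 12-library model, and KRT14 has close paralogues and pseudogenes between which reads can be split. In the list of cell junctions 11 of 23 members were higher with shRNA2 and 1 with shRNA1 (median -0.19). The counts were 9 to 13 and 1 to 4 without 1 library (4 without shRNA1 library 3), but only 2 and 0 in the 12-library model. JUP, plakoglobin, was at 475, 413 and 359 CPM with shRNA1 and 777, 731 and 745 CPM with shRNA2 (1.81-fold, log2 difference -0.85, SE 0.11, edgeR adjusted p = 0.000925). DSC3, a desmosomal cadherin, was at 5.48 ± 0.531 against 10.3 ± 1.73 CPM (1.88-fold, edgeR adjusted p = 0.0054), TJP3, a tight junction scaffold, at 6.75 ± 3.14 against 18.8 ± 1.11 CPM (2.78-fold, edgeR adjusted p = 0.00788) and CLDN4, claudin 4, at 143 ± 8.65 against 226 ± 13.3 CPM (1.58-fold, edgeR adjusted p = 0.00111). DSC3 passed in every alternative fit at an adjusted p under 0.05, and the other 3 lost their calls in the 12-library model.

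The transcription factors of the squamous lineage split. Of 16 tested, 4 were higher with shRNA2 and 2 with shRNA1 (median -0.05), and without shRNA1 library 3 both counts were 6. Calls in the 12-library model were 3 and 0. TP73, of the p53 family, was at 13.5, 17.1 and 12.2 CPM with shRNA1 and 44.8, 44.3 and 50.1 CPM with shRNA2 (3.25-fold, log2 difference -1.70, SE 0.14, edgeR adjusted p = 0.000231), and PITX1, a homeobox factor of the mouth, at 92.4 ± 11.7 against 169 ± 7.04 CPM (1.83-fold, edgeR adjusted p = 0.000878). SOX2, a progenitor factor, was low at 1.03 ± 0.165 against 3.21 ± 1.05 CPM (3.09-fold, edgeR adjusted p = 0.00585). TP63, the master factor of stratified epithelia, was higher with shRNA1 at 143, 126 and 139 CPM with shRNA1 and 84.3, 86.8 and 84.9 CPM with shRNA2 (1.597-fold, log2 difference 0.67, SE 0.08, edgeR adjusted p = 0.000959). SOX2 and TP63 lost their calls in the 12-library model. TP73 overlaps several genes on the opposite strand. Differentiation genes also divided. Of 14 tested genes of the cornified envelope 2 were higher with shRNA1 and 3 with shRNA2 (median 0.02), and without shRNA1 library 3 the first count was 6. It was 1 without shRNA1 library 2 or any 1 of the shRNA2 libraries and in the 12-library model. Periplakin, PPL, was at 110.1 ± 26.7 against 195 ± 2.704 CPM (1.77-fold, edgeR adjusted p = 0.00592), the lipid transporter ABCA12 at 2.32 ± 0.813 against 6.71 ± 0.949 CPM (2.896-fold, edgeR adjusted p = 0.00354) and GRHL1 at 2.27 ± 0.6795 against 4.095 ± 0.388 CPM (1.799-fold, edgeR adjusted p = 0.0332, call lost under several alternatives), all higher with shRNA2. LYPD3 was higher with shRNA1 at 157 ± 26.6 against 103 ± 5.62 CPM (1.52-fold, edgeR adjusted p = 0.00692).

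Kallikrein-related peptidases, the serine proteases of epithelial shedding, and clade B serpins, intracellular inhibitors of proteases, went opposite ways. Of 6 tested kallikreins 3 were higher with shRNA2 and 0 with shRNA1 (median -1.81), a count of 3 to 4 in the fits without 1 library and 3 in the 12-library model. KLK10 was at 1.46, 1.43 and 1.22 CPM with shRNA1 and 8.09, 6.88 and 7.95 CPM with shRNA2 (5.56-fold, log2 difference -2.47, SE 0.20, edgeR adjusted p = 0.000196) and KLK6 at 2.47, 2.36 and 1.75 CPM with shRNA1 and 7.85, 6.25 and 6.42 CPM with shRNA2 (3.11-fold, log2 difference -1.64, SE 0.22, edgeR adjusted p = 0.00112), both with no overlap. KLK5 had 2, 1 and 2 counts with shRNA1 and 24, 18 and 24 with shRNA2 (edgeR adjusted p = 0.000919). Of 10 tested serpins 5 were higher with shRNA1 and 1 with shRNA2 (median 0.86). SERPINB2, the plasminogen activator inhibitor PAI-2, was at 16.4, 16.5 and 8.79 CPM with shRNA1 and 1.15, 1.04 and 1.704 CPM with shRNA2, lowest in library 3 (10.6-fold, log2 difference 3.41, SE 0.32, edgeR adjusted p = 0.000327). SERPINB8 was at 26.4 ± 2.68 against 9.66 ± 1.62 CPM (2.73-fold, edgeR adjusted p = 0.000614). SERPINB3 (19.9 ± 6.31 against 9.81 ± 0.678 CPM, 2.03-fold, edgeR adjusted p = 0.00871) and SERPINB4 (12.7 ± 5.03 against 4.804 ± 0.813 CPM, 2.65-fold, edgeR adjusted p = 0.00829), the squamous cell carcinoma antigens, are near-identical copies between which reads can be split, and SERPINB3 lost its call in the 12-library model. S100 proteins gave 4 of 12 members higher with shRNA1 and 2 with shRNA2 (median 0.06). Those counts were 4 and 4 without shRNA1 library 3, 3 and 1 without shRNA2 library 1, 2 and 1 without shRNA1 library 2 or shRNA2 library 2 or 3, 5 and 1 with the GC correction, and 2 and 0 in the 12-library model. Among the members called were S100A9 at 5.02 ± 1.698 against 1.698 ± 0.353 CPM (2.96-fold, edgeR adjusted p = 0.006598) and S100P at 212 ± 55.8 against 103 ± 4.02 CPM (2.05-fold, edgeR adjusted p = 0.00318, call lost in the 12-library model). S100A6 (1.404-fold, edgeR adjusted p = 0.0184) and S100A13 (1.38-fold, edgeR adjusted p = 0.02098) were also higher with shRNA1, and lost their calls when single libraries were left out.

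Hypoxia and glycolysis genes were called often, in both directions. Low oxygen stabilises HIF factors, which raise secreted factors such as VEGFA as well as glycolytic enzymes. Of 40 tested members 16 were higher with shRNA1 and 13 with shRNA2 (median 0.13). Without shRNA1 library 2 or shRNA2 library 1 the counts were 9 and 8, and without shRNA2 library 2 or 3 the second count was 7. The 12-library model called 4 and 2. VEGFA was at 124, 109 and 83.8 CPM with shRNA1 and 49.95, 51.8 and 48.1 CPM with shRNA2 (2.12-fold, log2 difference 1.08, SE 0.14, edgeR adjusted p = 0.00112). ADM, adrenomedullin, was at 78.8, 76.3 and 38.7 CPM with shRNA1 and 24.3, 25.1 and 26.3 CPM with shRNA2 (2.56-fold, edgeR adjusted p = 0.00383), with library 3 lowest of its group. ANGPTL4 was at 23.3 ± 1.44 against 8.93 ± 1.72 CPM (2.61-fold, edgeR adjusted p = 0.0007501), ANKRD37 at 6.18 ± 2.03 against 2.74 ± 0.552 CPM (2.26-fold, edgeR adjusted p = 0.0139) and ALDOC at 60.4 ± 28.8 against 23.1 ± 4.34 CPM with overlapping values (2.61-fold, edgeR adjusted p = 0.0156). All 5 were higher with shRNA1 and lost their calls in the 12-library model. Some enzymes of glycolysis itself were higher with shRNA2: PFKL, phosphofructokinase, at 95.5, 92.2 and 105 CPM with shRNA1 and 189, 179 and 191 CPM with shRNA2 (1.91-fold, log2 difference -0.94, SE 0.08, edgeR adjusted p = 0.000293), GPI at 496 ± 27.2 against 797 ± 19.8 CPM (1.61-fold, edgeR adjusted p = 0.000587) and ALDOA at 1392 ± 43.7 against 2204 ± 96.1 CPM (1.58-fold, edgeR adjusted p = 0.000532, call lost in the 12-library model). These enzymes were picked after their values were seen. Other members did not follow this division. The hypoxia gene CA9 was higher with shRNA2 (log2 difference -1.06, edgeR adjusted p = 0.0091). The glycolysis genes HK2 (0.91, edgeR adjusted p = 0.00885) and PFKFB3 (1.07, edgeR adjusted p = 0.000801) were higher with shRNA1.

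Mitochondrially encoded respiratory chain genes were higher with shRNA2 for 9 of 13 members and with shRNA1 for 1 (median -0.41), 6 to 9 and 0 to 2 without 1 library, and 2 and 0 in the 12-library model. MT-ND4 was at 1475, 1488 and 1904 CPM with shRNA1 and 3078, 3138 and 3043 CPM with shRNA2, with no overlap (1.902-fold, log2 difference -0.93, SE 0.11, edgeR adjusted p = 0.000679). MT-CO2 was at 1335 ± 224 against 2466 ± 45.2 CPM (1.85-fold, edgeR adjusted p = 0.00104) and MT-ATP6 at 968 ± 20.6 against 1738 ± 6.14 CPM (1.796-fold, edgeR adjusted p = 0.000176, call lost in the 12-library model). MT-ND4L, which overlaps MT-ND4 on the same transcript, was the member higher with shRNA1 (1.45-fold, edgeR adjusted p = 0.0208), and lost its call under several alternatives. The mitochondrial share of all counts was 1.62 to 1.81% with shRNA1 and 2.16 to 2.22% with shRNA2. Aldehyde dehydrogenases, which oxidise reactive aldehydes, gave 9 of 14 members higher with shRNA2 and 2 with shRNA1 (median -0.49), 5 without shRNA2 library 3 and 4 in the 12-library model. ALDH3A1 was at 11.9, 12.8 and 17.1 CPM with shRNA1 and 64.1, 60.3 and 56.8 CPM with shRNA2, every shRNA2 value being more than 3 times every shRNA1 value (4.34-fold, log2 difference -2.12, SE 0.15, edgeR adjusted p = 0.000149). ALDH16A1 was at 17.9 ± 1.52 against 53.3 ± 2.58 CPM (2.98-fold, edgeR adjusted p = 0.000138) and ALDH3B1 at 19.2 ± 2.28 against 44.3 ± 1.44 CPM (2.31-fold, edgeR adjusted p = 0.000383). ALDH5A1 was near 1 to 3 CPM (2.4-fold, edgeR adjusted p = 0.0109, call lost without shRNA2 library 3). ALDH16A1 overlaps PIH1D1 on the opposite strand.

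Stress and lipid lists had calls on both sides. In the heat shock and unfolded protein list 13 of 32 members were higher with shRNA1 and 3 with shRNA2 (median 0.15). The first count was 7 without shRNA2 library 3, and the second 6 without shRNA1 library 3 and 1 without shRNA2 library 1, and the 12-library model called 5 and 0. MANF, a factor released under endoplasmic reticulum stress, was at 75.4, 74.5 and 61.1 CPM with shRNA1 and 32.5, 28.3 and 28.6 CPM with shRNA2 (2.36-fold, log2 difference 1.24, SE 0.12, edgeR adjusted p = 0.000356). The co-chaperones DNAJB9 (13.8 ± 2.77 against 5.68 ± 0.214 CPM, 2.43-fold, edgeR adjusted p = 0.00158) and DNAJA1 (257 ± 23.9 against 157 ± 7.199 CPM, 1.64-fold, edgeR adjusted p = 0.00111) were higher with shRNA1, as was the inducible HSPA6 at 2.84 ± 1.62 against 0.543 ± 0.138 CPM (5.19-fold, edgeR adjusted p = 0.00992, call lost in the 12-library model). Of 29 ATF4 response genes 8 were higher with shRNA1 and 6 with shRNA2 (median 0.06), and without shRNA2 library 1 the first count was 5. The 12-library model called 3 and 4. DDIT3, the stress factor CHOP, was at 34.96, 35.8 and 18.1 CPM with shRNA1 and 11.8, 10.5 and 12.1 CPM with shRNA2, with library 3 between the other shRNA1 libraries and shRNA2 (2.58-fold, edgeR adjusted p = 0.00395). ATF3 (28.2 ± 5.23 against 12.6 ± 2.55 CPM, 2.25-fold, edgeR adjusted p = 0.00273) and CHAC1 (2.36 ± 0.371 against 1.03 ± 0.254 CPM, 2.28-fold, edgeR adjusted p = 0.01504) were higher with shRNA1, both with calls lost in the 12-library model. SLC6A9, a glycine transporter, was higher with shRNA2 at 6.96, 5.65 and 12.1 CPM with shRNA1 and 33.3, 29.4 and 33.01 CPM with shRNA2 (3.88-fold, log2 difference -1.96, SE 0.25, edgeR adjusted p = 0.00107). Of 30 NRF2 targets 4 were higher with shRNA1 and 6 with shRNA2 (median -0.05), 11 and 12 without shRNA1 library 3 and 1 and 4 in the 12-library model. TXNRD1, thioredoxin reductase, was higher with shRNA1 (864 ± 149 against 479 ± 16.2 CPM, 1.803-fold, edgeR adjusted p = 0.00164). AKR1C2 (3.79 ± 1.47 against 11.1 ± 0.645 CPM, 2.91-fold, edgeR adjusted p = 0.00381), which has near-identical paralogues, PIR (6.798 ± 1.37 against 14.95 ± 1.64 CPM, 2.199-fold, edgeR adjusted p = 0.00239) and the transporter ABCC3 (17.7 ± 1.91 against 32.3 ± 1.77 CPM, 1.82-fold, edgeR adjusted p = 0.00149, call lost in the 12-library model) were higher with shRNA2. Of 33 genes of cholesterol and fatty acid synthesis 8 were higher with shRNA1 and 6 with shRNA2 (median 0.12). Leaving out shRNA2 library 1, 2 or 3 gave 3 and 3, leaving out shRNA1 library 2 gave 5 in the first place, and leaving out shRNA1 library 3 gave 10 in the second. The 12-library model called 2 and 1. SREBF1, the master factor of fatty acid synthesis, was higher with shRNA2 at 169, 165 and 219 CPM with shRNA1 and 431, 398 and 379.6 CPM with shRNA2 (2.19-fold, log2 difference -1.13, SE 0.12, edgeR adjusted p = 0.000564), as was FASN, fatty acid synthase (522 ± 84.2 against 921 ± 24.8 CPM, 1.76-fold, edgeR adjusted p = 0.001504). HMGCS1, of cholesterol synthesis, was higher with shRNA1 (153 ± 31.7 against 77.95 ± 1.29 CPM, 1.96-fold, edgeR adjusted p = 0.00159). The calls of FASN and HMGCS1 were lost in the 12-library model.

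The genes with the largest differences at 5 CPM or more and no overlap between the groups were taken as 12 in each direction. Those higher with shRNA1 were SPARC, IL24, INHBA, DIO2, SERPINB2, NNMT, IL7R, STC1, FN1, the histone genes H2BC5 and H2BC4, and CCN1, from 44.7-fold down to 5.45-fold. DIO2, the deiodinase that activates thyroid hormone, was at 6.86, 9.14 and 23.4 CPM with shRNA1 and 0.966, 0.868 and 1.19 CPM with shRNA2, and NNMT, nicotinamide N-methyltransferase, at 5.6, 5.404 and 19.2 CPM with shRNA1 and 0.906, 1.27 and 0.909 CPM with shRNA2. In both, library 3 had more than the sum of libraries 1 and 2 (12.9-fold, edgeR adjusted p = 0.00135, and 9.71-fold, edgeR adjusted p = 0.00319). IL7R, the receptor of interleukin 7, was at 63.7, 66.3 and 118 CPM with shRNA1 and 9.301, 9.26 and 8.35 CPM with shRNA2 (9.21-fold, log2 difference 3.20, SE 0.25, edgeR adjusted p = 0.000189). STC1, stanniocalcin 1, a secreted glycoprotein, was at 203, 184 and 74.7 CPM with shRNA1 and 16.4, 20.2 and 18.5 CPM with shRNA2, here with library 3 the lowest of its group (8.37-fold, log2 difference 3.06, SE 0.34, edgeR adjusted p = 0.000652). H2BC5 (30.2, 22.4 and 4.82 CPM with shRNA1 and 3.74, 3.07 and 1.59 CPM with shRNA2) and H2BC4 (17.1, 16.8 and 4.24 CPM with shRNA1 and 2.78, 2.72 and 1.42 CPM with shRNA2) were near the shRNA2 range in library 3, belong to a family of near-identical genes, and lost their calls without the low-count filter.

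Higher with shRNA2 were METTL7A, VILL, TSHZ2, ATOH8, MEOX1, LINC01257, MYO15B, HNF4A, ABHD16B, METTL27, RMI2 and MMP28, from 9.65-fold down to 4.897-fold. METTL7A (ENSG00000185432, chromosome 12, 50923472 to 50932517, plus strand), a methyltransferase of lipid droplets, was at 1.11, 1.23 and 1.75 CPM with shRNA1 and 12.5, 12.4 and 14.5 CPM with shRNA2 (9.65-fold, log2 difference -3.27, SE 0.21, edgeR adjusted p = 0.000135). VILL, a villin-like actin binder, was at 0.908, 1.52 and 1.59 CPM with shRNA1 and 13.9, 10.4 and 12.3 CPM with shRNA2 (9.05-fold, log2 difference -3.18, SE 0.25, edgeR adjusted p = 0.000176). TSHZ2, a zinc finger factor, was at 0.252, 0.688 and 2.65 CPM with shRNA1 and 9.97, 10.8 and 8.24 CPM with shRNA2, with library 3 highest of shRNA1 (8.14-fold, edgeR adjusted p = 0.00522, call lost without the low-count filter). ATOH8, a helix-loop-helix factor, was at 0.959, 1.08 and 1.69 CPM with shRNA1 and 8.76, 8.56 and 9.66 CPM with shRNA2 (7.22-fold, edgeR adjusted p = 0.000235), and MEOX1, a mesodermal homeobox factor, at 1.56, 1.28 and 2.01 CPM with shRNA1 and 11.5, 11.6 and 9.15 CPM with shRNA2 (6.65-fold, edgeR adjusted p = 0.000205). HNF4A (ENSG00000101076, chromosome 20, 44355700 to 44434596, plus strand), a nuclear receptor of liver and gut, was at 2.47, 3.29 and 1.96 CPM with shRNA1 and 15.2, 14.6 and 14.03 CPM with shRNA2 (5.66-fold, log2 difference -2.50, SE 0.20, edgeR adjusted p = 0.000199), with its call lost in the 12-library model, and overlaps HNF4A-AS1 on the opposite strand. RMI2, of the complex that dissolves Holliday junctions, was at 6.51, 7.22 and 9.43 CPM with shRNA1 and 37.6, 41.3 and 39.7 CPM with shRNA2 (5.13-fold, log2 difference -2.36, SE 0.16, edgeR adjusted p = 0.000135), and its annotated span holds SOCS1 and protamine genes on the opposite strand. The other 4, LINC01257 (6.33-fold, edgeR adjusted p = 0.000195), MYO15B (5.94-fold, edgeR adjusted p = 0.0009897), ABHD16B (5.63-fold, edgeR adjusted p = 0.000416) and METTL27 (5.32-fold, edgeR adjusted p = 0.000254), lay between 1.11 and 3.02 CPM with shRNA1 and between 9.55 and 11.9 CPM with shRNA2. The most abundant genes at 2-fold or more were KRT13, KRT19, EPHA2 and TGM2, given above, and CTSD, the lysosomal protease cathepsin D, at 481, 463 and 419 CPM with shRNA1 and 959, 875 and 895 CPM with shRNA2 (2.001-fold, log2 difference -1.0, SE 0.08, edgeR adjusted p = 0.000208).

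**Figure D4:**
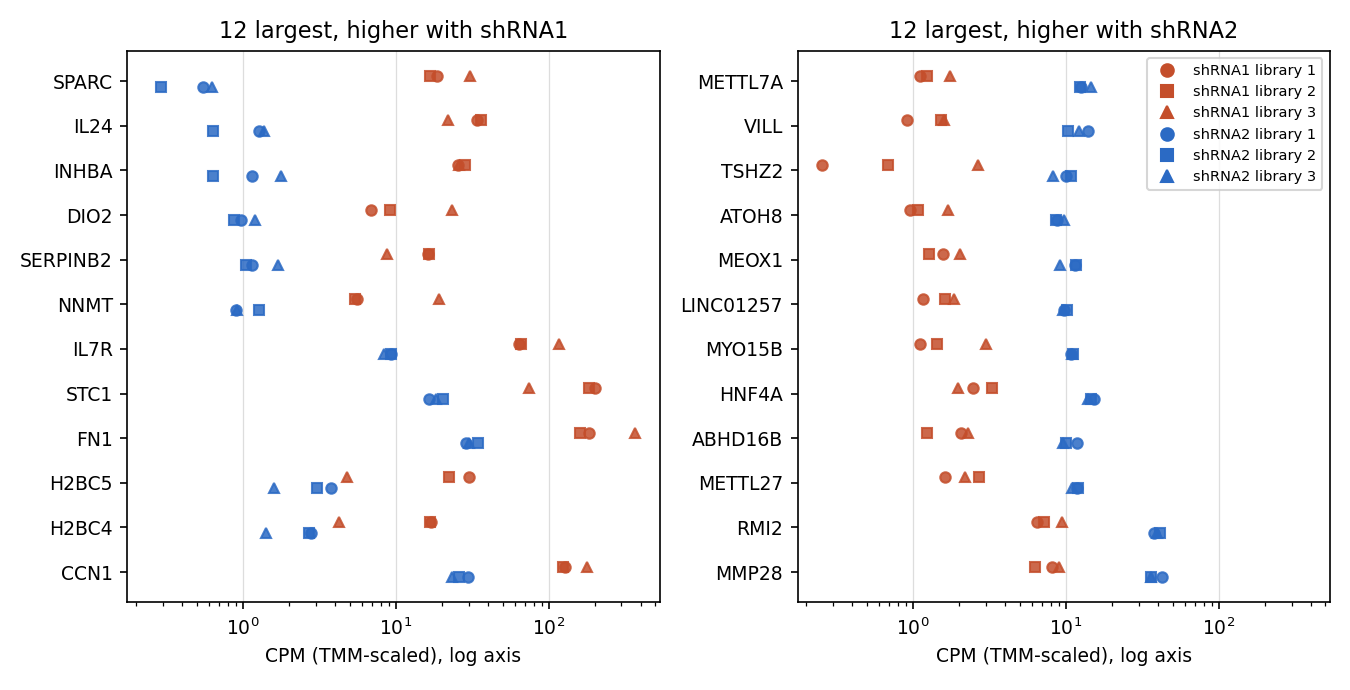
CPM (log scale) of the 12 genes with the largest difference in each direction, 1 point for each of the 6 libraries. SPARC runs from 0.289 to 0.625 CPM in the shRNA2 points and from 16.9 to 30.6 in the shRNA1 points, and METTL7A from 12.4 to 14.5 against 1.11 to 1.75.

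The levels in NC and shRNA3 show where each hairpin lay, with all 12 libraries scaled together and no test. The NC mean lay between the means of the hairpins for 27.6% of the genes called higher with shRNA1 and 24.6% of those called higher with shRNA2, against 16.4% of all tested genes. For the rest of the called genes the NC mean lay outside the range spanned by the hairpins. Called genes were selected for a gap between the hairpin means, which by itself raises the share lying between them. The excess over all tested genes therefore says nothing about NC. CCN1 stood at 946, 913 and 815 CPM with NC, 126, 122 and 175 with shRNA1, 28.9, 25.2 and 22.9 with shRNA2 and 935, 934 and 33.7 with shRNA3, so it was below NC with both hairpins and lowest with shRNA2. F3 stood at 331, 461 and 431 CPM with NC, 346, 370.1 and 469 with shRNA1, 71.8, 73.1 and 72.6 with shRNA2 and 227, 223 and 123 with shRNA3: shRNA1 was at about the NC level and shRNA2 below it. INHBA stood at 38.8, 33.4 and 38.4 CPM with NC, 25.3, 28.1 and 25.3 with shRNA1, 1.11, 0.6201 and 1.72 with shRNA2 and 0.593, 0.948 and 6.71 with shRNA3, and again shRNA1 was the hairpin nearer to NC. For IL11 the values were 14.6, 11.6 and 8.17 CPM with NC, 47.1, 43.6 and 38.9 with shRNA1, 7.61, 8.91 and 8.97 with shRNA2 and 34.04, 42.3 and 5.56 with shRNA3, with shRNA1 above NC and shRNA2 at the lower end of NC or just below it. AREG was above NC with every hairpin, at 33.7, 33.1 and 31.2 CPM with NC, 138, 139 and 150.4 with shRNA1, 52.6, 55.1 and 48.97 with shRNA2 and 324, 312 and 72.96 with shRNA3. KRT13 was almost unread in NC, at 0.202, 0.197 and 0.0507 CPM with NC, 380.2, 421 and 468 with shRNA1, 1504, 1421 and 1459 with shRNA2 and 1510, 1324 and 702 with shRNA3, and KRT5 was far above all hairpin libraries in NC, at 1013, 1049 and 965 CPM with NC, 16.5, 18.7 and 29.1 with shRNA1, 82.1, 77.4 and 80.99 with shRNA2 and 84.8, 90.3 and 49.7 with shRNA3.

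ALDH3A1 was above NC with every hairpin, at 2.73, 3.497 and 2.33 CPM with NC, 11.7, 12.6 and 16.7 with shRNA1, 62.1, 58.8 and 55.3 with shRNA2 and 44.4, 44.1 and 39.6 with shRNA3, and PLK1 likewise, at 86.6, 78.2 and 72.3 CPM with NC, 125, 132 and 153 with shRNA1, 280, 252 and 256 with shRNA2 and 170.3, 164 and 191 with shRNA3. The shRNA3 libraries did not move as a group: libraries 1 and 2 were alike and library 3 differed from them, as CCN1 shows. Library 3 of shRNA3 lay between the shRNA1 and shRNA2 means for 76.0% of the genes higher with shRNA1 and 74.1% of those higher with shRNA2, against 48.1% of all tested genes. The mean of shRNA3 libraries 1 and 2 did so for 22.6% and 26.2%, against 15.5%. As with NC, the selection of called genes raises these shares, so their excess over all tested genes says nothing about shRNA3. The gap between library 3 and libraries 1 and 2 is another matter. It was present over all tested genes (48.1% against 15.5%), where no gene was selected by its call, and was not tested.

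**Figure D5:**
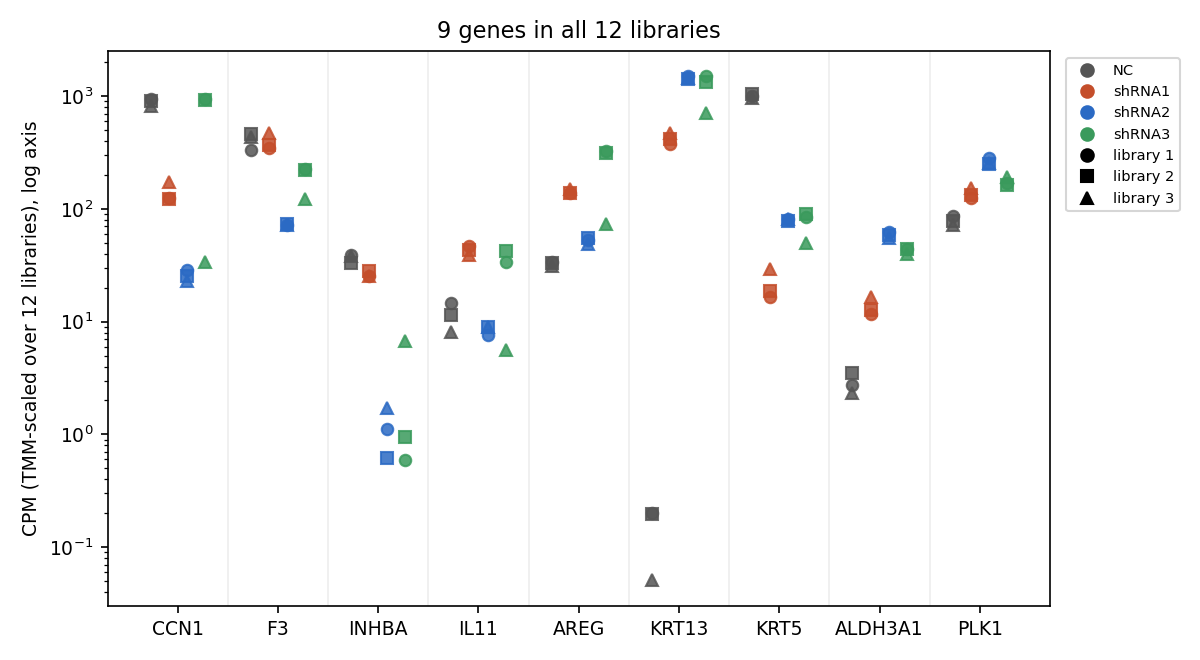
CPM (log scale, 12 libraries scaled together) of 9 genes in each of the 3 NC, shRNA1, shRNA2 and shRNA3 libraries, 1 point for each library. KRT13 lies at 0.0507 to 0.202 CPM in the NC points and at 380.2 to 1504 CPM in the shRNA1 and shRNA2 points, and CCN1 shows 2 shRNA3 points near 934 CPM and 1 at 33.7 CPM.

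Differences were spread over the genome. Among nuclear chromosomes the median log2 difference ran from -0.17 on chromosome 19, the richest in GC (median 58.8%), to 0.15 on chromosome 18 (43.2%). Windows of 25 neighbouring genes overlapped, so windows next to each other share most of their genes and are not separate regions. Of 13217 such windows, 134 had a median beyond 0.5 in either direction. The lowest, -0.76, lay on chromosome 19 from PPP1R12C to ZNF580 (55090913 to 55643469), where 17 genes were higher with shRNA2 and 1 with shRNA1, at a median GC of 64.1%. The highest, 0.67, lay further along the same chromosome from ZNF17 to ZNF544 (57411163 to 58277495), a cluster of zinc finger genes in which 16 were higher with shRNA1 and 0 with shRNA2, at a median GC of 45.6%. Nearly as high, at 0.6687 against 0.6693, was a window on chromosome 8 from PIWIL2 to KCTD9 (22275297 to 25458476). There 14 genes were higher with shRNA1 and 0 with shRNA2, at a median GC of 50.1%. GC content thus differed between the chromosome 19 windows, while the chromosome 8 window was not low in GC. The part of GC content in these windows was not tested.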

How the data were processed

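RNA was sequenced from SCC-15 cells in 4 groups of 3 libraries, with groups and replicate numbers taken from the sample titles. The authors deposited 1 table of estimated counts per gene, not scaled, with 61044 IDs, and 13.17% of its values in the 6 libraries compared are not whole numbers. Per the submitters' processing notes HISAT2, HTSeq 0.11.2 and GRCh38 were named. Per the labels' protocols libraries were made with a NEBNext Ultra RNA kit and read on an Illumina HiSeq instrument, which does not by itself say whether strand was kept. Neither the annotation nor whether counting used strand is given in the sources used here. Positions, overlaps, GC content and length come from GENCODE 29 by Ensembl ID (97.9% of tested genes had a position), promoters from RefSeq.

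The estimated counts were rounded, filtered with edgeR's filterByExpr (minimum count 10, minimum total 15), scaled by TMM and fitted on the 6 shRNA1 and shRNA2 libraries with edgeR's robust quasi-likelihood test (R 4.3.3, edgeR 4.0.16, two-sided, 4 residual degrees of freedom, common biological coefficient of variation 0.153, Benjamini-Hochberg over 15256 genes, threshold 0.05). CPM values are TMM-scaled, and differences are shRNA1 minus shRNA2 on the log2 scale, with the SE from the F statistic. The scripts were tested on simulated counts. Lists were described by counts and medians with no set test.

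Named genes were the 12 with the largest difference in each direction at a mean of 5 CPM or more without overlap between groups, the 5 with most CPM at 2-fold or more, and up to 4 called members of each list at a mean of 1 CPM or more. The groups, lists and named genes were chosen with earlier results of these data known. Same-numbered libraries were not paired: the correlations of their deviations from the group means were 0.03, -0.02 and 0.04. Replicate libraries differed by more than sampling noise in every pair. Alternatives used DESeq2 (1.42.0), other filters, models with more libraries, a replicate block, thinning to equal totals, corrections for GC content and length, stricter thresholds and the leaving out of each library.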

Additional observations from a re-analysis of the deposited data

How the results depend on the processing

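The number of genes that differed between the hairpins was 6251. It was 2158 in a model of all 12 libraries, 3150 at an adjusted p under 0.01, 1654 with a 2-fold minimum, and 9839 with the correction for GC content and length without shRNA1 replicate 3. Leaving out 1 library gave 3649 to 9442. The replicate block gave 5695, with no pairing in the labels, and the correction with the block 5526. The other alternatives gave 5709 (mean of at least 50 counts) to 7007 (9 libraries). Of the genes named by the rule, 175 in number, 159 were high enough for the fit with a mean of at least 50 counts. In the 17 alternative fits each kept its direction wherever it was tested, 91 kept their call at an adjusted p under 0.05 in every fit that tested them, and 72 lost it in the 12-library model. In the 9-library model, without shRNA3, 1 gene lost its call. Of the 91, 74 were also under 0.01 and at least 2-fold in the model reported. The median of 17 of the 45 lists changed sign under some alternative fit, among them Notch (-0.27, and 0.03 with the GC correction) and HLA (-0.31, and 0.0021 with that correction and without shRNA1 replicate 3). FMOD and other genes under about 3 counts could not be compared at this depth.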

Other observations

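Developmental and immune lists add smaller groups of genes. Of 18 tested Notch genes 7 were higher with shRNA2 and 4 with shRNA1 (median -0.27), led by MAML2, a co-activator of Notch, at 0.908, 0.983 and 2.701 CPM with shRNA1 and 6.402, 8.04 and 6.93 CPM with shRNA2 (4.67-fold, log2 difference -2.22, SE 0.39, edgeR adjusted p = 0.00346). HES4, a Notch target, was also higher with shRNA2 (30.4 ± 2.41 against 57.95 ± 2.54 CPM, 1.904-fold, edgeR adjusted p = 0.000585). JAG1, a ligand, was higher with shRNA1 (64.5 ± 13.4 against 37.8 ± 4.54 CPM, 1.71-fold, edgeR adjusted p = 0.00698), and the low ligand gene DLL4 had overlapping values (4.51 ± 2.27 against 1.73 ± 0.549 CPM, 2.602-fold, edgeR adjusted p = 0.0362). With the GC correction the median of this list was 0.03. The count with shRNA1 was 2 without shRNA1 library 2 and 1 without any 1 of the shRNA2 libraries, that with shRNA2 was 4 without shRNA2 library 2 or 3, and the 12-library model called 1 each way. Of 23 WNT genes 4 were higher with shRNA1 and 2 with shRNA2 (median 0.01), 9 and 5 without shRNA1 library 3. The second count was 1 with the GC correction, in the 12-library model and without shRNA1 library 2 or shRNA2 library 2 or 3. The receptor FZD8 (30.4 ± 1.54 against 11.96 ± 1.09 CPM, 2.54-fold, edgeR adjusted p = 0.000294) and the ligand WNT7A (31.7 ± 7.24 against 16.02 ± 1.57 CPM, 1.98-fold, edgeR adjusted p = 0.00413) were higher with shRNA1, and FZD10 (12.7 ± 1.13 against 22.7 ± 1.25 CPM, 1.79-fold, edgeR adjusted p = 0.00183) and WNT10A (1.19 ± 0.287 against 2.76 ± 0.938 CPM, 2.32-fold, edgeR adjusted p = 0.0212) with shRNA2. HOX genes, which record position along the body axis, gave 4 of 29 higher with shRNA2 and 1 with shRNA1 (17.2% called), 8 in the first place without shRNA1 library 3, 5 and 2 with the GC correction, and 2 and 0 in the 12-library model. The second count was 0 without shRNA1 library 1 or shRNA2 library 1 or 2. HOXA3 was at 23.3, 26.4 and 24.9 CPM with shRNA1 and 50.3, 51.2 and 49.7 CPM with shRNA2 (2.03-fold, log2 difference -1.02, SE 0.10, edgeR adjusted p = 0.000338), HOXA5, whose annotated span overlaps it, was lower with shRNA1 too (1.91-fold, edgeR adjusted p = 0.0133), and HOXB3 was higher (1.87-fold, edgeR adjusted p = 0.0361).

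Of 18 antigen presentation genes 4 were higher with shRNA2 and 1 with shRNA1 (median -0.31), 7 and 4 without shRNA1 library 3. The first count was 2 without shRNA1 library 2 and 1 without any 1 of the shRNA2 libraries, the GC correction gave 3 and 2, and the 12-library model 0 and 1. TAPBP, tapasin (86.6 ± 15.1 against 156 ± 3.204 CPM, 1.81-fold, edgeR adjusted p = 0.00164), HLA-F (1.47-fold, edgeR adjusted p = 0.0461) and PSMB9 (1.41-fold, edgeR adjusted p = 0.0217) led the first group, against ERAP2, a peptide trimming enzyme (7.75 ± 1.33 against 4.01 ± 0.623 CPM, 1.93-fold, edgeR adjusted p = 0.00791). Of 12 acute-phase and antimicrobial genes 2 went each way (median 0.44). The count with shRNA1 was 6 without shRNA1 library 3 and 1 without any 1 of the shRNA2 libraries, the GC correction gave 4 with shRNA1 and 3 with shRNA2, and the 12-library model 3 and 1. SAA1 (4.96 ± 1.05 against 0.966 ± 0.314 CPM, 5.095-fold, edgeR adjusted p = 0.00111) and RNASE7 (1.84-fold, edgeR adjusted p = 0.0169) were higher with shRNA1, LCN2 (3.86 ± 0.622 against 10.7 ± 0.757 CPM, 2.75-fold, edgeR adjusted p = 0.000825) and complement C3 (66.4 ± 11.4 against 109 ± 6.11 CPM, 1.64-fold, edgeR adjusted p = 0.00421) with shRNA2. All 5 tested metallothionein list genes were called, 2 higher with shRNA1 and 3 with shRNA2, against 1 each way in the 12-library model, without shRNA1 library 2 and without shRNA2 library 1 or 2. The first count was also 1 without shRNA1 library 1, and the second 1 without shRNA2 library 3. MT1B had 4, 3 and 1 counts with shRNA1 and 22, 41 and 52 with shRNA2, MT1F was higher with shRNA2 (2.13-fold, edgeR adjusted p = 0.0324), MT1X had overlapping values (44.4 ± 12.2 against 26.97 ± 3.28 CPM, 1.65-fold, edgeR adjusted p = 0.0238), and the zinc exporter SLC30A1 was higher with shRNA1 (88.6 ± 9.32 against 56.7 ± 0.904 CPM, 1.56-fold, edgeR adjusted p = 0.00232); metallothioneins are close copies between which reads can be split. Of 9 catecholamine genes 6 were higher with shRNA2 and 2 with shRNA1 (median -0.36), 2 or 3 in the first place without shRNA1 library 2 or any 1 of the shRNA2 libraries, 4 and 1 with the GC correction, and 3 and 0 in the 12-library model. The second count was 0 without shRNA2 library 1 or 2 and 1 without shRNA1 library 1 or 2 or shRNA2 library 3. TH, tyrosine hydroxylase, was at 20.8, 22.8 and 29.4 CPM with shRNA1 and 57.7, 48.5 and 48.8 CPM with shRNA2 (2.13-fold, log2 difference -1.09, SE 0.15, edgeR adjusted p = 0.00133), MAOB at 2.195 ± 0.557 against 7.32 ± 1.23 CPM (3.34-fold, edgeR adjusted p = 0.00149) and PTS, higher with shRNA1, at 23.3 ± 2.69 against 15.5 ± 1.35 CPM (1.497-fold, edgeR adjusted p = 0.01099). Of 6 tested cancer-testis genes MAGEA1 (38.02 ± 4.101 against 52.2 ± 1.84 CPM, 1.37-fold, edgeR adjusted p = 0.0112) and DPPA2 (1.65 ± 0.254 against 3.28 ± 0.408 CPM, 1.99-fold, edgeR adjusted p = 0.0133) were higher with shRNA2, a count of 0 without shRNA2 library 3 and in the 12-library model and of 1 without shRNA2 library 1 or 2. Among the genes of this section, HLA-F, PSMB9, DLL4, WNT10A, MT1F, MT1X, RNASE7, PTS, MAGEA1, DPPA2, HOXA5 and HOXB3 lost their calls when at least 1 single library was left out, and HES4, FZD8, FZD10, C3, TAPBP and MT1B in the 12-library model.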
